A study of Macaca mulatta and Mus musculus and Rattus norvegicus with 12 samples.

Results

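The limb T-box genes TBX2, TBX3, TBX4, TBX5, TBX15 and TBX18, together with the homeobox genes PITX1 and SHOX2, were followed in bone enriched for osteocytes (cells buried in the mineralized matrix) from calvaria (skull vault) and tibia in mouse, rat and rhesus macaque. These 8 genes were taken from the count tables by their symbols, out of 38599 symbols in mouse, 35259 in rat and 28641 in macaque. All 8 had a row in mouse and rat, and 7 in macaque, where no row carries the symbol TBX2. A macaque row described as TBX2-like (LOC716277) has the gene ID that RefSeq lists as TBX2, and its values are given separately. The genes were chosen with their calvaria to tibia differences in these same libraries known. The differences between sites are therefore a description of the 8 genes. No p-value of these differences is printed, and whether a gene passed the study's call thresholds is given as a description only.

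The 12 libraries were made from poly(A)+ RNA of bone from which the periosteum had been stripped. Mouse (C57BL6, labelled 4 months) gave 4 libraries, each from several pooled animals: M4 and M8 from calvaria, M5 and M7 from tibia. Rat (Wistar, 6 months) gave 1 pooled library per site, R1 from calvaria and R3 from tibia, and so has no replicates. Rhesus macaque gave 6 libraries from 3 animals, of which G1, G3 and T1 were calvaria while G2, G4 and T2 were tibia. By the study's methods, each calvaria library shares its animal or pool with a tibia library, so that the sites are not independent samples, but the labels name no pairs. No sample was treated or genetically altered, and all animals were female according to the study's methods. The label of the macaques reads 4 to 6 months, while the methods text gives these figures in years. The methods also describe the ages as past the fastest growth of each species. The labels alone do not settle the unit. Mouse and rat were sequenced on one lane and macaque on another, so that species, lane, genome and annotation cannot be told apart.

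T-box factors share a DNA-binding domain, the T-box, and act as activators or repressors of patterning genes. In the embryo, PITX1 and its target TBX4 mark the hindlimb bud, and TBX5 marks the forelimb bud. TBX2 and TBX3 are mainly repressors expressed at the margins of the limb bud, TBX15 and TBX18 act in limb and skeletal mesenchyme, and SHOX2 controls growth of the proximal limb skeleton. The bones of the calvaria form in head mesenchyme and pass through no limb bud.

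Between 7951585 and 16826535 reads per library were counted on genes. The libraries M4 and M8 stood apart from each other: SHOX2 had 1157 reads in M4 and 46 in M8, and without M4 the edgeR quasi-likelihood test called 7470 mouse genes instead of 510. Markers of other cells also differed between sites. In mouse the summed level of 6 osteocyte markers was 1041 to 1847 CPM (reads of a gene scaled to the library's reads on genes) in calvaria and 7623 to 10369 in tibia. All 6 had reads in each mouse library, and 4 were called higher in tibia. Of 6 periosteal and tendon markers, summing to 779 CPM in M4, 130 in M8 and 2250 to 2326 in tibia, 1 was called higher in mouse tibia, PRG4, which made up most of the tibia sum (11.7 CPM in calvaria and 1977 in tibia on average). The means of POSTN (263 and 79.1 CPM), SCX (12.8 and 6.38 CPM) and TNMD (18.8 and 16.1 CPM) were the higher ones in calvaria, and these genes were not called. Of 7 chondrocyte markers 5 were called higher in tibia (34.4 to 106 CPM in calvaria, 628 to 739 in tibia, with MATN3 at 0 reads in both calvaria libraries). Of 5 adipocyte markers 4 were (197 to 512 CPM against 1022 to 1319, with PLIN1 at 0 reads in both calvaria libraries). In rat the osteocyte markers summed to 500 CPM in calvaria and 7242 in tibia, with FGF23 at 0 in both. There 10 skeletal muscle markers summed to 8.35 CPM and 949 CPM, with CKM and MYOD1 at 0 in calvaria. In macaque the osteocyte markers summed to 4917 to 5779 CPM in calvaria and 7777 to 17530 in tibia, and 2 of 6 were called higher in tibia. All 4 detected haematopoietic markers were called higher in macaque calvaria (25300 to 37450 CPM against 7010 to 10246). No macaque row carried the symbol CD79A. Of 5 adipocyte markers 4 were called higher in macaque calvaria (2287 to 3064 CPM against 788 to 1878). Of 5 tested periosteal and tendon markers 3 were called higher in macaque tibia (12.5 to 16.2 CPM in calvaria, 52.9 to 58.9 in tibia). SCX had no row in macaque. The part of these cells in the results below was not tested. In such bulk RNA, fewer cells of a type and less RNA per cell cannot be told apart.

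In the mouse genome (GRCm38, GENCODE vM21) the T-box genes lie partly in pairs. Tbx2 (chromosome 11, 85832551 to 85841948, plus strand) and Tbx4 (chromosome 11, 85886422 to 85916097, plus strand) are 44473 bases apart. Tbx3 (chromosome 5, 119670669 to 119684724, plus strand) and Tbx5 (chromosome 5, 119832668 to 119885219, plus strand) are 147943 bases apart. Tbx15 is on chromosome 3 (99240381 to 99354259, plus strand), as is Shox2 (66971727 to 66981771, minus strand). Tbx18 lies on chromosome 9 (87702800 to 87731260, minus strand) and Pitx1 on chromosome 13 (55825051 to 55836192, minus strand).

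Because related genes can share reads, the coding sequences of the 8 mouse genes were compared letter by letter. The longest identical run between any 2 of them, over 28 pairs, was 23 bases, as in TBX15 and TBX18. The stretches of 60 coding bases around the longest shared run are shown for 2 pairs of related genes, to show how far these genes differ beside it. They are read 5′ to 3′ from GENCODE vM21 transcripts, and capitals mark the bases that differ within the pair. The pair TBX2 and TBX3 differed at 10 of the 60 bases, and TBX15 and TBX18 at 6.
TBX2: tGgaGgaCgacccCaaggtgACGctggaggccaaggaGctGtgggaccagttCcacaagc
TBX3: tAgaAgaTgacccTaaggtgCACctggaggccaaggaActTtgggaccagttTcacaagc
TBX15: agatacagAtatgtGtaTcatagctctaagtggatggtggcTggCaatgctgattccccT
TBX18: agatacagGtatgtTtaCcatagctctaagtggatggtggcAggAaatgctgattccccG
The windows start at coding base 302 of TBX2, 296 of TBX3, 514 of TBX15 and 610 of TBX18. Reads were counted without regard to strand, and 5 of the 8 mouse genes overlap another annotated gene. Shox2 overlaps the protein-coding gene Rsrc1 on the opposite strand by 382 bases, and Tbx3, Tbx15, Tbx18 and Pitx1 overlap antisense or other RNAs. Reads from such overlaps cannot be told apart.

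The hindlimb factors PITX1 and TBX4 had nearly all of their reads in the tibia, the bone of the hindlimb. For PITX1, a homeobox activator that sets hindlimb identity, no reads were counted in M4 or M8, against 93 in M5 and 59 in M7. With 3 reads allowed for each library without reads, the PITX1 level was at least 22.1-fold higher in mouse tibia. In rat PITX1 had 0 reads in calvaria and 4 in tibia, too few for a fold, and the lower 95% exact limit of the tibia to calvaria ratio was 0.769. In macaque PITX1 had 0 reads in every calvaria library and 4, 14 and 2 reads in G2, G4 and T2. Since T2 lay under the floor of 3 reads and G4 held 14 of the tibia reads, no fold is given. The reads of PITX1 thus came from tibia alone in all 12 libraries, but only in mouse were they more than a few. TBX4, the T-box factor of the hindlimb, had 0 reads in M4 and 2 in M8, against 59 in M5 and 46 in M7. The summed TBX4 reads, scaled by library, were 46.7 times as high in mouse tibia (95% exact binomial interval 12.6 to 391, counting error only). In rat TBX4 had 0 reads in calvaria and 5 in tibia, and the lower 95% exact limit of the ratio was 1.07. Macaque TBX4 was at 0 reads in 5 libraries and at 4 in G4, so that no fold is given there.

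TBX5, known as the forelimb counterpart of TBX4, showed another pattern across species. It had no reads in any of the 4 mouse libraries, and in rat 0 reads in calvaria and 1 in tibia, which are both at or under the floor. In macaque TBX5 had no reads in the 3 calvaria libraries and 30, 24 and 6 reads in G2, G4 and T2. With 3 reads allowed for each calvaria library, the mean level of the macaque tibia libraries was at least 5.99-fold higher. This bound is for the mean: T2 was at 0.582 CPM, under G2 at 3.28 and G4 at 2.74 CPM. A few reads of a forelimb factor were thus counted in the tibia, a hindlimb bone, in all 3 macaque tibia libraries.

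**Figure D1:**
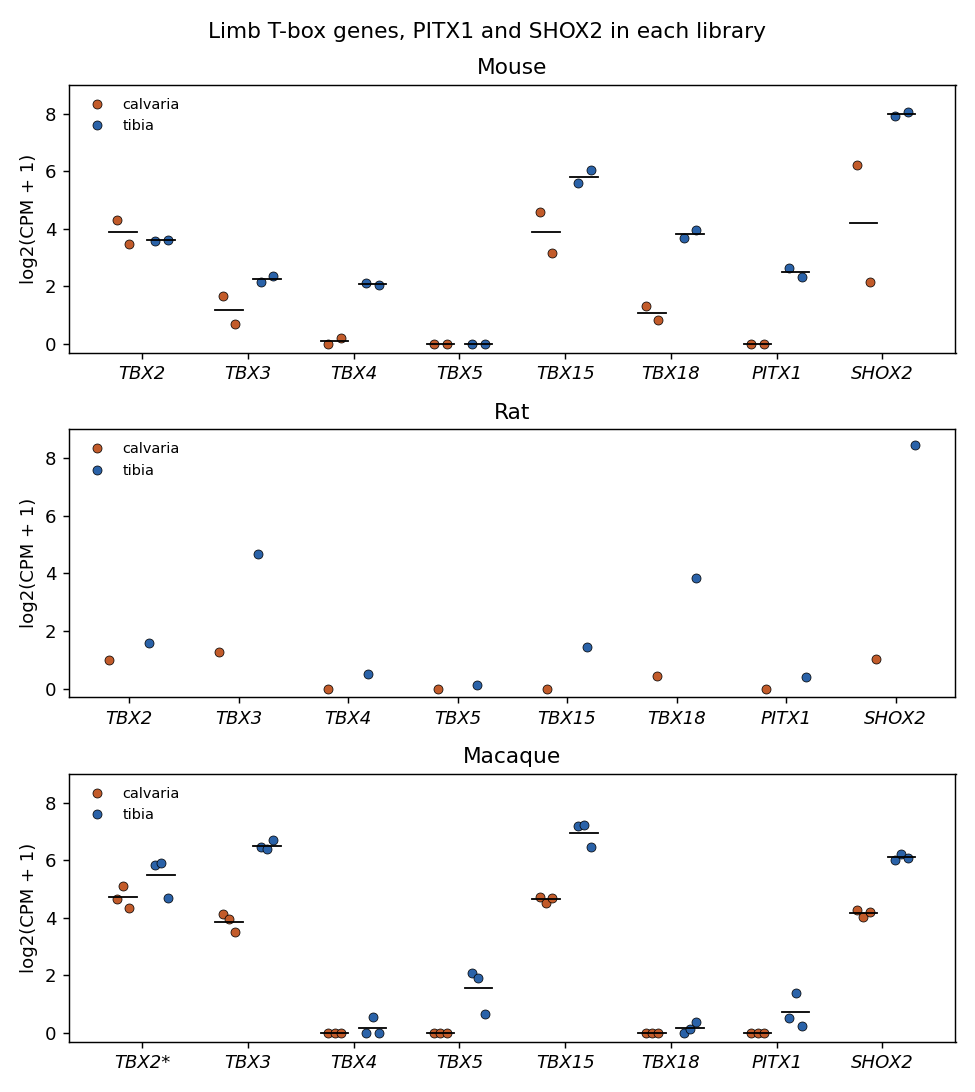
Level of each gene in each library as log2(CPM + 1), one panel per species, with calvaria in orange, tibia in blue, 1 point per library and the mean of the plotted values as a bar. CPM were scaled by TMM factors in mouse and macaque and by library size in rat, and TBX2* is the macaque TBX2-like row. SHOX2, TBX15 and TBX3 were higher in every tibia than in every calvaria library of each species, whereas mouse TBX2 overlapped between sites.

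TBX15 and TBX18, related factors of skeletal mesenchyme, differed in how their deposited counts were spread over the species. TBX15 had 361 and 104 reads in the mouse calvaria libraries M4 and M8, against 833 and 949 in the tibia libraries M5 and M7. Its normalized level was 15.5 ± 10.7 CPM in mouse calvaria and 56.0 ± 12.6 CPM in tibia (SD, n = 2 each), a log2 fold change of -1.85 ± 0.40 (SE), where negative values are higher in tibia. The sites did not overlap, although M4 lay closer to tibia than M8 did. In macaque TBX15 had 213, 174 and 205 reads in G1, G3 and T1, against 1318, 1317 and 894 in G2, G4 and T2. This gave 24.1 ± 2.03 CPM in calvaria and 127 ± 35.0 CPM in tibia (SD, n = 3 each), a log2 fold change of -2.40 ± 0.21 (SE). The calvaria libraries of macaque lay close together and the tibia library T2 was the lowest of its site. In rat TBX15 had 0 reads in calvaria and 21 in tibia, where its level was 1.72 CPM, and the lower 95% exact limit of the tibia to calvaria ratio was 6.07.

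In the deposited counts, TBX18 had almost all of its reads in the rodents. It had 23 and 10 reads in M4 and M8, against 209 and 213 in M5 and M7. The level was 1.12 ± 0.50 CPM in mouse calvaria and 13.2 ± 1.95 CPM in tibia (SD, n = 2 each), a log2 fold change of -3.54 ± 0.46 (SE). In rat TBX18 had 5 reads in calvaria and 161 in tibia, a tibia to calvaria ratio of 37.5 (95% exact binomial interval 15.8 to 117, counting error only). In macaque TBX18 had no reads in calvaria and 0, 1 and 3 reads in G2, G4 and T2, which is at or under the floor at both sites, so no fold is given. The TBX18 row covers 2090 exonic bases in macaque, against 4679 in mouse and 4611 in rat. The part of this annotation in the low macaque count was not tested.

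SHOX2, the homeobox factor of proximal limb growth, had the most tibia reads of the 8 genes in mouse and rat. It had 1157 and 46 reads in M4 and M8, against 4313 and 3872 in M5 and M7. The level was 38.8 ± 49.9 CPM in calvaria and 254 ± 14.9 CPM in tibia (SD, n = 2 each), a log2 fold change of -2.71 ± 0.80 (SE). The tibia libraries lay close together, while M4 and M8 spread over most of the calvaria range: M4 stood at 29.1% of the tibia mean and M8 at 1.38%. Without M4 the SHOX2 log2 fold change was -6.20, and without M8 it was -1.79. In rat SHOX2 had 15 reads in calvaria and 4290 in tibia, a ratio of 333 (95% exact binomial interval 202 to 596, counting error only). In macaque it had 152, 122 and 143 reads in G1, G3 and T1, against 578, 650 and 682 in G2, G4 and T2. The macaque level was 17.0 ± 1.54 CPM in calvaria and 67.9 ± 5.68 CPM in tibia (SD, n = 3 each), a log2 fold change of -1.997 ± 0.21 (SE). The order of the sites was thus the same in the 3 species, but the calvaria level of SHOX2 ranged from 1.05 CPM in rat and 3.51 CPM in M8 to 74.0 CPM in M4.

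TBX3, a repressor of the limb bud margin, had few reads in mouse and more in macaque. In mouse it had 34 and 8 reads in M4 and M8, against 62 and 61 in M5 and M7. The level was 1.39 ± 1.11 CPM in calvaria and 3.84 ± 0.47 CPM in tibia (SD, n = 2 each), a log2 fold change of -1.44 ± 0.64 (SE), which did not pass the threshold. The sites did not overlap in mouse, and M4 reached 56.7% of the tibia mean where M8 reached 15.9%. In rat TBX3 had 20 reads in calvaria and 299 in tibia, a ratio of 17.4 (95% exact binomial interval 11.1 to 28.9, counting error only). In macaque TBX3 had 137, 117 and 85 reads in G1, G3 and T1, against 792, 722 and 1056 in G2, G4 and T2. The macaque level was 13.8 ± 3.19 CPM in calvaria and 90.5 ± 10.6 CPM in tibia (SD, n = 3 each), a log2 fold change of -2.71 ± 0.22 (SE). The macaque sites were well apart by more than the spread within either site.

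TBX2, the closest relative of TBX3, had the smallest site difference among the members with more than 3 reads at both sites. In mouse it had 297 and 133 reads in M4 and M8, against 196 and 164 in M5 and M7. Its level was 14.6 ± 6.27 CPM in calvaria and 11.1 ± 0.10 CPM in tibia (SD, n = 2 each), a log2 fold change of 0.39 ± 0.36 (SE), and the sites overlapped. The sign of the TBX2 difference rested on M4: it was -0.16 without M4 and 0.76 without M8. In rat TBX2 had 14 reads in calvaria and 24 in tibia, a ratio of 1.998 whose 95% exact binomial interval reached from 0.99 to 4.18. The macaque TBX2-like row had 200, 270 and 161 reads in G1, G3 and T1, against 517, 511 and 254 in G2, G4 and T2. Its log2 fold change was -0.85 ± 0.26 (SE), with tibia library T2 at 24.7 CPM under calvaria library G3 at 33.9 CPM.

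**Figure D2:**
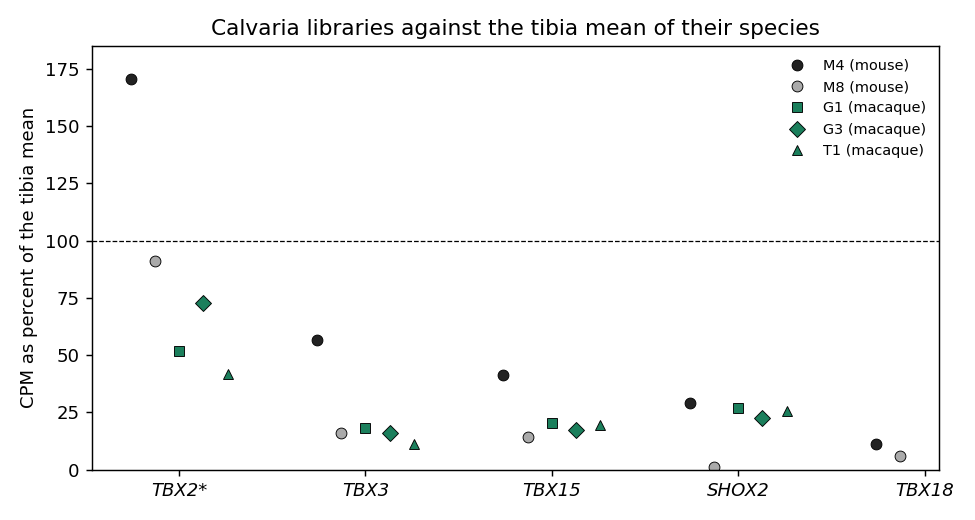
Normalized level of 5 genes in each calvaria library of mouse (circles) and macaque (green) as a percent of the mean of the tibia libraries of the same species, with a dashed line at 100%. TBX2* is the macaque TBX2-like row in the macaque points, and TBX18 is shown for mouse only. M4 lay above M8 for all 5 genes, while the 3 macaque libraries lay within 17.2% to 20.2% for TBX15 and 22.5% to 27.0% for SHOX2.

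The study's call thresholds are an FDR (false discovery rate) below 0.2 and a fold change above 1.1. By these thresholds, without the study's filter on genes lacking reads, 5 of 7 tested members were higher in mouse tibia and none in calvaria. The 5 were PITX1, TBX4, TBX15, TBX18 and SHOX2. Among all 22339 tested mouse genes 1.57% were called higher in tibia and 0.712% higher in calvaria. In 6 of the 7 every tibia library lay above every calvaria library, as in 18.4% of all mouse genes. In macaque 5 of 7 tested members (TBX3, TBX5, TBX15, PITX1 and SHOX2) were called higher in tibia and none in calvaria, among 18894 genes of which 9.43% were called higher in tibia and 10.3% in calvaria. For these 5 genes the sites did not overlap, as in 12.1% of all macaque genes with every tibia above every calvaria library. In rat 6 of 8 members (TBX3, TBX4, TBX15, TBX18, PITX1 and SHOX2) had a log2 ratio past -2, against 8.14% of 19234 genes. Since the genes were chosen on this contrast, these counts say nothing further about them. The mouse count depended on which genes entered the edgeR fit. The study removed genes without reads in at least 1 sample, a filter not used for the counts above. Here it was tried with the quasi-likelihood test of edgeR 4.0.16, whereas the study used edgeR 3.16.5. The counts that follow are thus not those of the study's own fit. Where every mouse library needed a read, 14 of 16740 mouse genes were called and 0 of 5 tested members. Where every macaque library needed a read, 3773 of 13094 macaque genes were called and 3 of 3 tested members. Where low counts were filtered with filterByExpr, 29 of 15402 mouse genes were called and 0 of 7 members. SHOX2 in mouse passed the threshold narrowly and was not called with other normalizations or with DESeq2.

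**Figure D3:**
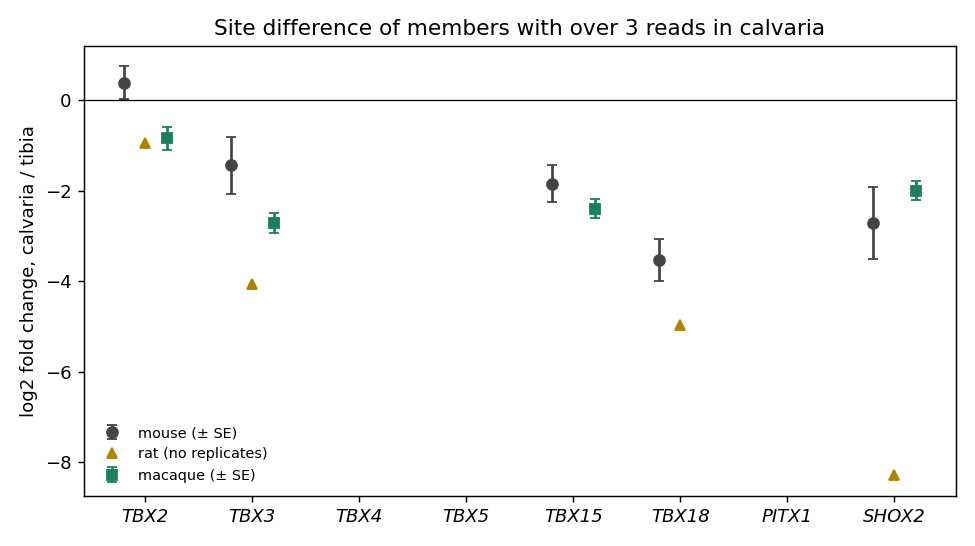
Log2 fold change of calvaria over tibia for members with more than 3 reads in some calvaria library, with SE bars in mouse and macaque and no error in rat, which has 1 library per site. The macaque TBX2 point is the TBX2-like row. Points below the line are higher in tibia: TBX3, TBX15, TBX18 and SHOX2 lay below it in each species where they are drawn, and mouse TBX2 lay above at 0.39.

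The site differences of mouse and macaque were also set against each other, as a species by site interaction over 10 libraries. Since this difference is formed from the contrasts on which the genes were chosen, its values are a description. None of 6 fitted members passed a false discovery rate of 0.2 in the edgeR quasi-likelihood test, against 4.89% of 11565 genes, and 1 had an unadjusted p under 0.05. For TBX3 the macaque difference minus the mouse difference was -1.27 ± 0.54 (SE). It was -0.53 ± 0.52 for TBX15 and 0.73 ± 1.00 for SHOX2. For the TBX2-like row against mouse TBX2 it was -1.22 ± 0.55. These values rested on the calvaria pools of mouse. Without M4 the SHOX2 difference was 4.18, and without M8 it was -0.22. Without M8 the TBX3 difference was -1.90 and that of TBX15 was -1.13. With 1 mouse calvaria library left, that library is assumed to vary like the others.

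Levels of different genes were compared as RPKM, which scales the reads by the exonic length of the gene and by the reads on all genes. In mouse tibia SHOX2 was highest at a mean of 46.6 RPKM, followed by TBX15 at 15.4, TBX2 at 3.22, TBX18 at 2.89 and PITX1 at 1.80 RPKM. TBX4 at 0.738 and TBX3 at 0.690 RPKM came last among those with reads, and only these neighbours in the order overlapped between libraries. In macaque tibia TBX15 at 39.4 and SHOX2 at 36.6 RPKM overlapped at the top, followed by TBX3 at 19.1 RPKM and the TBX2-like row at 13.3. TBX5, PITX1, TBX4 and TBX18 lay between 0.0663 and 0.633 RPKM on average in macaque tibia, and each overlapped the next. In rat tibia SHOX2 reached 224 RPKM, TBX3 4.01, TBX18 2.85 and TBX2 1.59 RPKM, and TBX15 was at 0.198 RPKM. In mouse calvaria SHOX2 at 6.92, TBX15 at 4.10 and TBX2 at 4.02 RPKM overlapped from one to the next, and in macaque calvaria SHOX2 at 7.97, TBX15 at 6.43 and the TBX2-like row at 6.35 RPKM did too. In rat calvaria TBX2 had the highest level, 0.796 RPKM from 14 reads, beside SHOX2 at 0.671 RPKM from 15 reads. Their order rests on these few reads of 1 library. The exonic lengths differ between the tables (for SHOX2 5610 bases in mouse, 1569 in rat and 1993 in macaque), so an RPKM level of one species is not set against that of another.

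**Figure D4:**
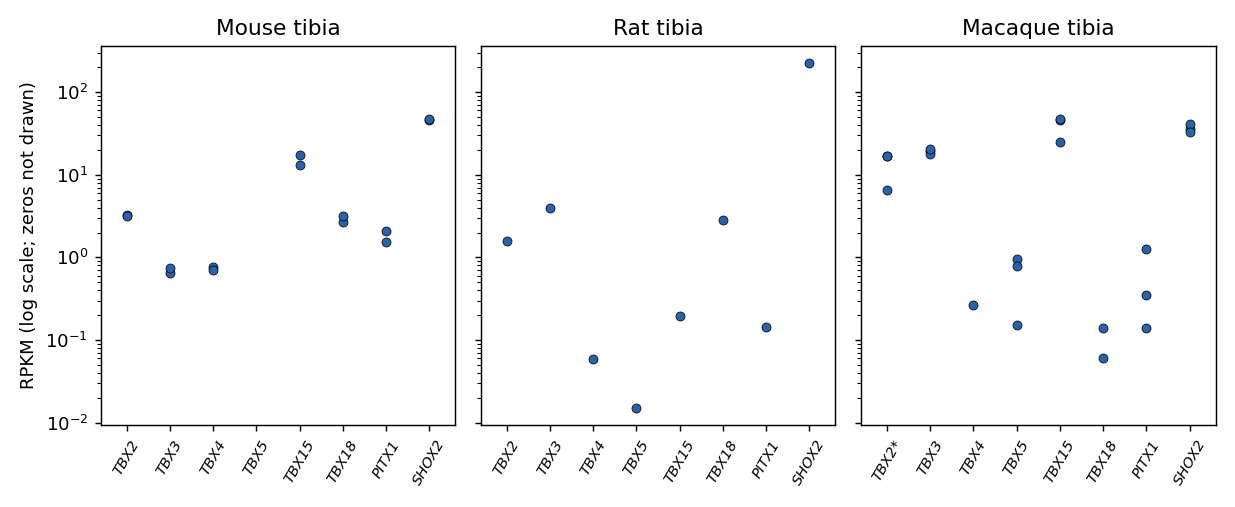
Level per exonic length of each gene in the tibia libraries of each species, as RPKM on a log scale with 1 point per library and libraries without reads left out. SHOX2 lies highest in mouse and rat, and TBX15 and SHOX2 overlap at the top in macaque, where TBX2* is the TBX2-like row.

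Of the other T-box genes 1 was called, in macaque. Among all mouse genes the edgeR quasi-likelihood test called 1.57% higher in tibia and 0.712% higher in calvaria. Of 9 other T-box genes tested in mouse (such as TBX1, TBX20, EOMES and MGA), it called 0, and DESeq2 called 0. None had an unadjusted p under 0.05 in either test, and edgeR's exact test gave 1. Their median log2 fold change was 0.82, against 0.05 for all mouse genes, but 4 of the 9 had at most 10 reads in the mouse libraries together. Over the other 5, split off after their values were seen, the median was -0.08. In macaque 1 of 7 was called, where 9.43% of all genes were called higher in tibia and 10.3% higher in calvaria. This was MGA, a T-box protein that pairs with MAX. It had 958 to 1137 reads in calvaria and 1635 to 1796 in tibia (log2 fold change -0.49, adjusted p = 0.0779 in the edgeR quasi-likelihood test). In rat 0 of 8 passed the log2 threshold of 2, which 8.14% of all rat genes passed toward tibia.

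Other genes of limb bud patterning were called in both directions. Of 25 tested in mouse, 3 were called, all higher in calvaria, where 0.712% of all mouse genes were called, against 1.57% in tibia. EN1, a homeobox factor of the ventral limb ectoderm and of the brain and skull, had 171 and 102 reads in M4 and M8, against 9 and 7 in M5 and M7 (log2 fold change 4.22, adjusted p = 0.000836). ALX4, a homeobox gene of skull and anterior limb mesenchyme, had 273 and 107 against 63 and 30 reads (2.18, adjusted p = 0.0435). MEIS2, a homeobox gene of the proximal limb, had 184 and 42 against 17 and 18 reads (2.77, adjusted p = 0.0537). The median of the 25 was -0.07, beside 0.05 for all genes. Without M4 or M8, which leaves 1 mouse calvaria library, the number called rose both for these genes and for all mouse genes.

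In macaque 10 of 16 tested limb bud genes were called, 9 of them higher in tibia, with a median log2 fold change of -0.79 beside 0.03 for all genes, of which 9.43% were called higher in tibia and 10.3% higher in calvaria. DLX5, a homeobox gene of bone-forming cells, had 993 to 1239 reads in calvaria and 2631 to 3098 in tibia (-1.18, adjusted p = 8.19e-06). BMP4, a secreted growth factor, had 103 to 143 reads in calvaria and 387 to 487 in tibia (-1.62, adjusted p = 2.47e-06). FGF10, the signal that starts limb bud outgrowth, had 5 to 16 reads against 22 to 131 (-2.91, adjusted p = 0.000144). ZBTB16, a zinc finger factor of limb patterning, was called too (-1.74, adjusted p = 0.000668), but its tibia library T2 had 97 reads, under the lowest calvaria library at 120. Of the called genes only MEIS2 was higher in macaque calvaria, with 65 to 89 reads against 26 to 60 (1.11, adjusted p = 0.0503). In rat 7 of 19 passed the threshold of 2. Toward tibia, where 8.14% of all rat genes passed, these were BMP4, DLX5, DLX6, MSX2 and SALL1. Toward calvaria they were EN1 (97 reads in calvaria, 7 in tibia) and MEIS2 (20 and 3). DLX6 and SALL1 had no rat calvaria reads and at most 4 in tibia. MEIS2 was thus higher in calvaria in each of the 3 species, in the direction opposite to SHOX2.

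**Figure D5:**
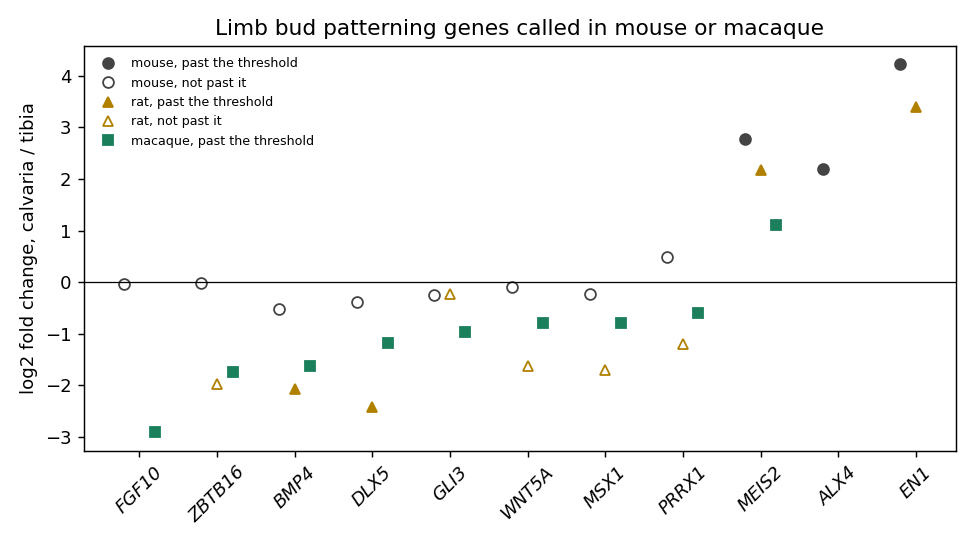
Log2 fold change of calvaria over tibia for limb bud patterning genes called in mouse or macaque, by species, with filled symbols past the threshold of that species and open symbols not past it. HAND2, with no calvaria reads in macaque, is left out, and a missing symbol means that the gene was not tested there. MEIS2 lies above 0 in all 3 species and EN1 in mouse and rat, while BMP4 and DLX5 lie below 0 in each.

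T-box repressors are known to act on genes of the cell cycle and of adhesion. Of 6 such genes, 1 was called in mouse, toward tibia (1.57% of all genes), and 2 in macaque, 1 toward tibia (9.43%) and 1 toward calvaria (10.3%). NDRG1, a stress-response gene repressed by TBX2, had 3655 and 3245 reads in mouse calvaria and 23673 to 26897 in tibia (log2 fold change -2.72, adjusted p = 0.000138). In macaque NDRG1 had 1910 to 1936 reads in calvaria and 3191 to 5590 in tibia (-1.06, adjusted p = 0.000209). CDKN1A, the cell cycle inhibitor p21, was higher in macaque calvaria, with 219 to 301 reads against 90 to 148 (1.25, adjusted p = 0.000785 in the edgeR quasi-likelihood test). Its difference had the other sign in mouse (-0.90) and rat (-1.87), where it did not pass the thresholds. In rat NDRG1, CDKN2A and CDKN2B passed the threshold toward tibia, as did 8.14% of all rat genes. Of these, CDKN2A had 0 reads in calvaria and 7 in tibia.

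For TBX3, TBX15 and SHOX2, which had at least 10 reads in some library of each species, the genes of the most alike pattern were sought over the 12 libraries, after the species means were taken out of log2(CPM + 1). The correlations are descriptions over libraries that share species, lane and site. Among 7512 other genes, TBX3 was nearest to TULP3 (r = 0.990), LIMCH1 (r = 0.981) and KLHL20 (r = 0.975). TBX15 was nearest to NRCAM (r = 0.985), ADM (r = 0.981) and SERINC1 (r = 0.979), and SHOX2 to CSPG4 (r = 0.993), SRGAP1 (r = 0.988) and UNC5B (r = 0.987). Such values were common: 8.11% of the genes had r above 0.8 with SHOX2 and 11.4% with TBX3. CSPG4, the gene nearest to SHOX2, was at 49.7 CPM and 14.6 CPM at its extremes in mouse calvaria and at 73.0 to 82.3 CPM in tibia. Among themselves, TBX3 and TBX15 had r = 0.895, TBX3 and SHOX2 r = 0.830, and TBX15 and SHOX2 r = 0.795.

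Of 13 distinct protein-coding genes beside the members on the mouse chromosomes and outside the list, 11 were tested in each species. In mouse 1 of the 11 was called, NT5E, toward tibia (1.57% of all genes were). In macaque 4 were called, 2 toward tibia (9.43% of all genes) and 2 toward calvaria (10.3%). In rat 1 passed the threshold, toward tibia (8.14% of all rat genes). NT5E, the ecto-enzyme CD73, is the next gene to TBX18, 595936 bases away. It had 127 and 104 reads in M4 and M8, against 680 and 624 in M5 and M7 (log2 fold change -2.34, adjusted p = 0.000836). NT5E was also higher in macaque tibia (-1.10, adjusted p = 0.0345), where TBX18 itself had at most 3 reads in a library, and it passed the rat threshold with 135 reads in calvaria and 579 in tibia. In macaque RSRC1, which overlaps SHOX2 in mouse, was higher in tibia (-0.51, adjusted p = 0.0694), and H2AFY beside PITX1 (0.79, adjusted p = 0.00186) and BRIP1 beside TBX4 (2.43, adjusted p = 0.121) were higher in calvaria. In mouse RSRC1 had 806 and 482 reads in M4 and M8, against 1171 and 1043 in M5 and M7, and was not called (-0.64, adjusted p = 0.520). WARS2, which ends 1194 bases from TBX15, was called in neither mouse (log2 fold change -0.30, adjusted p = 0.874) nor macaque (0.02, adjusted p = 0.978).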

How the data were processed

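Raw counts of reads per gene, deposited by the authors for each library, were used. The study's methods name HISAT2 as the aligner, whereas the processing notes name BWA 0.7.10-r789; counting used HTSeq on merged exons, ignoring strand. The normalized signal the authors deposited beside the counts was not used, and their exonic lengths served for RPKM. Symbols were put in upper case, rows of one symbol were summed, and rows naming no gene (at most 0.0663% of reads) were left out. In macaque, 5939 LOC rows received RefSeq symbols (names only).

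The members and all lists were chosen with earlier results of these data known. Genes with a read in some library were fitted per species with edgeR 4.0.16 in R 4.3.3 (TMM, quasi-likelihood test, Benjamini-Hochberg adjustment), after a test on simulated data. In macaque TBX2 counts outside the 7 members. In rat, 1 read was added to each count, and log2 ratios past 2 in size were counted. SE is the log2 fold change divided by the root of F. A library without reads was set to 3 reads for bounds, which take the tibia reads as counted; intervals at 95% and bounds cover counting error only. Named genes were all members, called list genes (at most 4 per list, species and direction), the 3 genes most like each member found in all species, and mouse neighbours. Shared coding runs came from the transcript with the longest coding sequence of each gene. Results of 1 gene list and 1 pair of sequences are not reported here.

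The labels do not name pairs of calvaria and tibia. Assumed macaque pairs (G1 with G2, G3 with G4, T1 with T2) correlated at r = 0.203, 0.282 and 0.446 over 12305 genes after site means were removed, against -0.351 to 0.0898 for other combinations. In mouse this check is uninformative. P-values measure the spread between these libraries. Alternatives covered normalization, tests, filters, thresholds, pairs and leaving out each library. DESeq2 1.42.0 was an alternative, and Python 3.11.15 with pandas 2.3.3 and numpy 2.4.6 was used.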

Additional observations from a re-analysis of the deposited data

How the results depend on the processing

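The number of called members in mouse (5) fell to 0 with filterByExpr, to 0 where every library needed a read and to 2 over symbols with reads in all 3 species. In macaque it fell from 5 to 3 with filterByExpr or a read in every library, where only 3 members were tested. Counting the macaque TBX2-like row, a setting chosen after seeing the data, gave 6 of 8. Called limb bud genes in mouse (3) numbered 1 with filterByExpr, 1 with a read in every library, 0 over symbols of all 3 species (1 of 14 with an unadjusted p under 0.05), and 2 to 13 without one library (13 without M4, 8 without M8). In macaque they fell from 10 to 6 at an absolute log2 fold change over 1.1. Other T-box genes called in macaque (1) numbered 2 with library size alone and 2 with edgeR's likelihood ratio test. They numbered 0 with the FDR threshold at 0.05, 0 at an absolute log2 fold change over 1.1 and 0 to 2 without one library (0 without G2, G3 or G4). A fit without 1 mouse library leaves 1 library at that site, so only effect sizes are given for such fits. TBX2 in mouse reversed to -0.16 without M4 and was 0.76 without M8. The interaction reversed to 0.42 for TBX15 without M4 and to -0.22 for SHOX2 without M8. It was 4.18 for SHOX2 without M4 and -1.13 for TBX15 without M8. All other single-gene values kept their direction. Over all settings, those fits included, 172 kept their call, 14 lost it and 5 gained it. The gains came from fits without M4 or M8 and are not read as results about these genes. In such fits TBX3 in mouse was -2.66 without M4, and the TBX3 interaction was -1.90 without M8. The cause of these changes was not tested. In mouse all 7 members were still tested with filterByExpr, and 5 where every library needed a read. With a replicate block for assumed pairs the mouse count of members stayed at 5, as with the other assumed pairs, and 295 mouse genes were called in place of 510. In macaque the block also left 5 members called and changed none of these counts. With the block added to the interaction, a setting chosen after seeing the data, 0 of 6 members were called, as without it, while the share of all genes called was 8.72% in place of 4.89%. For genes with few reads, such as PITX1 and TBX4 outside mouse, the values are limited by counting error. The cause of the few reads was not tested.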
